A study of Mus musculus with 6 samples.

Results

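Atxn2 and Pum2 encode RNA-binding proteins that act on mRNAs after transcription, and both genes were hosts of circRNAs in the mouse liver. All entries of the circRNA list whose host gene is Atxn2 or Pum2 were taken, which gave 13 entries for Atxn2 and 3 for Pum2 out of 7469 circRNAs. Together they accounted for 332 of 36218 back-spliced reads (0.917%). Both genes had been selected on their back-spliced reads in these same libraries, Atxn2 standing high in abundance and circRNA76 of Pum2 having reads in the HFD group alone, so that their ranks and their values between the diets are a description and not independent evidence.

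Liver RNA was sequenced from 3 mice fed a high-fat diet (HFD, 60% fat) and 3 mice fed a low-fat diet (LFD, 10% fat). The animals were male C57BL/6J mice with no genetic modification described, fed for 7 weeks, fasted for 12 h and 12 weeks old at collection. Ribosomal RNA was depleted and, by the study's methods but not by the sample descriptions, linear RNA was digested with RNase R, which leaves circles intact. The linear mRNAs of both genes were not measured.

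A circRNA forms by back-splicing, in which the end of an exon is joined to the start of the same or an upstream exon, so that a covalently closed circle results. The reads that span this junction are the back-spliced reads, and they were counted for each circle and library. SRPBM scales the back-spliced reads to the mapped reads of the library. A library held 5384 to 6590 back-spliced reads, and 1 read was worth 0.2294 to 0.2768 SRPBM. The limit that a count of 0 allows, 3 reads or 0.688 to 0.830 SRPBM, was used as a floor and covers counting error only. By the quality scores of the study's sequencing statistics, HFD 1 and LFD 3 form a class of higher quality and the other 4 libraries a class of lower quality. Of 14 hepatocyte marker genes, 13 were hosts of circRNAs, with 7 to 26 reads per library. Markers of immune cells (1 of 5 genes), endothelial cells (3 of 5) and stellate cells (1 of 5) had at most 4 reads per library for any of these lists, and those of the bile duct (4 genes) had none. In a bulk sample, fewer cells of a type and less RNA per cell cannot be told apart.

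Ataxin-2, the protein of Atxn2, binds RNA and the poly(A)-binding protein, takes part in the formation of stress granules and is known for the repeat expansion that causes spinocerebellar ataxia type 2. Pumilio 2, the protein of Pum2, belongs to the PUF family, which binds a short element in mRNAs, mostly in their 3′ untranslated regions, and represses them by recruiting deadenylases. In the authors' annotation 13 GO terms were listed for Atxn2 and 18 for Pum2, and 5 terms were common to both. These were cytoplasm, cytosol and perinuclear region of cytoplasm, together with cytoplasmic stress granule and stress granule assembly, which were listed for 28 and 11 host genes of the whole series.

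The leading circle of each gene is shown first, since it held most of the reads of that gene. The sequences are those of the GENCODE M21 transcripts on GRCm38, written 5′ to 3′ from the first base of the circle, on the plus strand for both genes. For mmu_circ_0012070 its exons are given in order, and the capitals mark the first 10 bases of exon 19 and the last 10 of exon 20, which are joined at the back-splice. In circRNA76 the capitals mark the annotated start codon of Pum2.
mmu_circ_0012070, exon 19: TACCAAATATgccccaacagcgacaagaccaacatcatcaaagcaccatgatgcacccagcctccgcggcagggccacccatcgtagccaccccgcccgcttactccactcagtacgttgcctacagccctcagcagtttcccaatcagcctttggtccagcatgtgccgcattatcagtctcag
mmu_circ_0012070, exon 20: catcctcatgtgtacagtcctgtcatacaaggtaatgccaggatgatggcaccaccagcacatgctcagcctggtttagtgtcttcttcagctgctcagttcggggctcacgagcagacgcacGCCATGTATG
circRNA76: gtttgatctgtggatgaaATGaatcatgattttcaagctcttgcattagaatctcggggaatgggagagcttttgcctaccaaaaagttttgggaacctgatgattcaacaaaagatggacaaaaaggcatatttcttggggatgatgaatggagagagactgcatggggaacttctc

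The circle listed as mmu_circ_0012070 consists of exons 19 and 20 of the 25 exons of the listed Atxn2 transcript, ENSMUST00000051950. It lies at chr5:121802081-121803080 on the plus strand, within Atxn2 (ENSMUSG00000042605.16, chr5:121711337-121816493), and joins the end of exon 20 to the start of exon 19. The exons are 185 and 133 bases long and are separated by an intron of 682 bp, so that the circle has 318 bases, all of them coding. It runs from within codon 973 to within codon 1079, both of which lie only partly in the circle, and its length is a multiple of 3. Its GC content was 55.3%, beside a median of 47.8% over the exonic circRNAs.

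CircRNA76 consists of exons 2 and 3 of the 21 exons of the Pum2 transcript ENSMUST00000111123. It lies at chr12:8698091-8706041 on the plus strand, within Pum2 (ENSMUSG00000020594.14, chr12:8674134-8752581). Exon 2 has 69 bases and exon 3 has 109, so that the circle has 178 bases, of which the first 18 lie in the 5′ untranslated region. The 160 bases from the start codon to the end of exon 3 are coding and end within codon 54 of Pum2, and read from that start codon the frame continues for 14 bases past the back-splice before a stop codon. The GC content of circRNA76 was 41.0%. Whether the circle is translated was not measured.

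**Figure D1:**
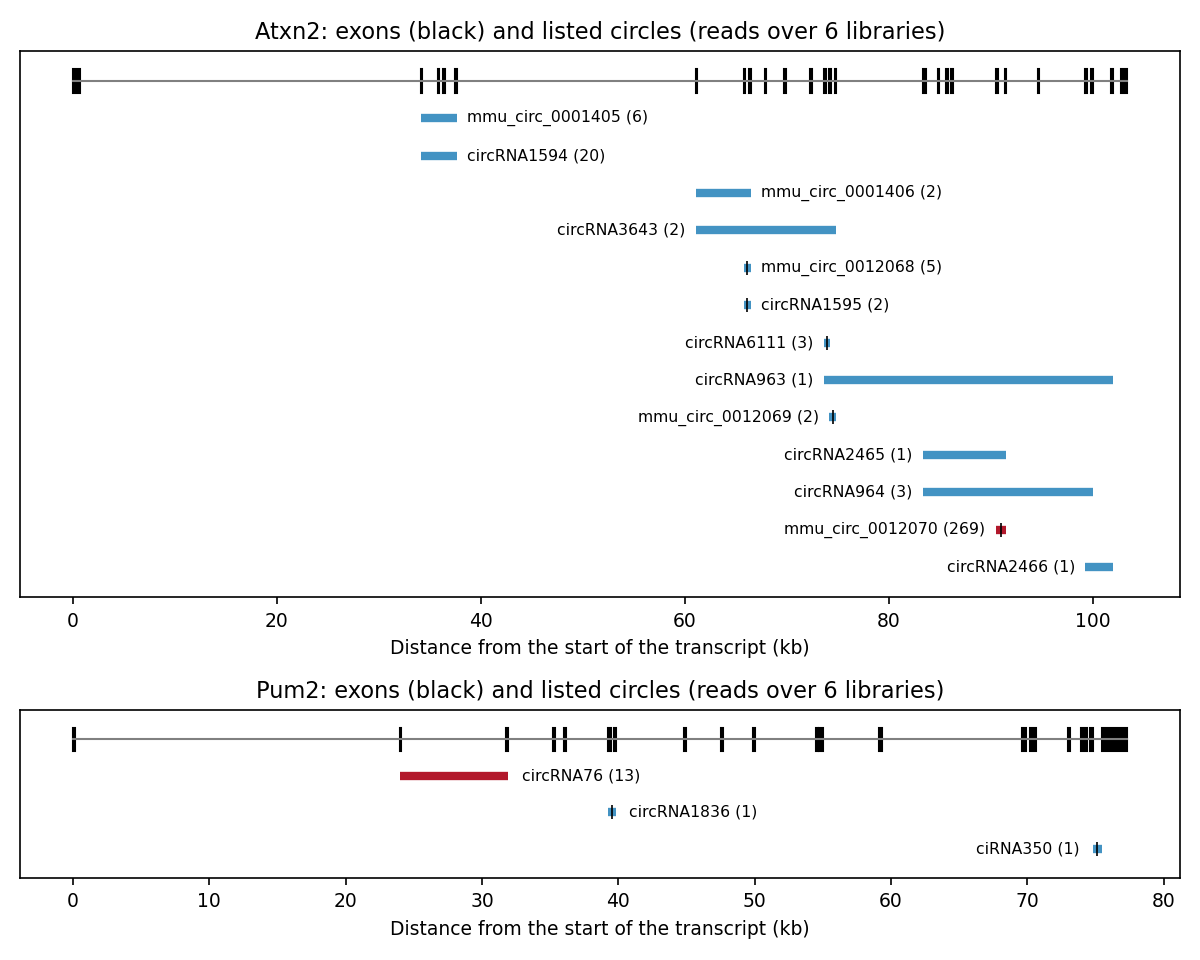
Exons (black boxes) of the listed transcripts of Atxn2 (upper panel) and Pum2 (lower panel) and the circles listed for each gene, drawn to scale against the distance from the start of the transcript in kb. Numbers in parentheses are the back-spliced reads over the 6 libraries, red bars are the leading circles, and a thin tick marks circles that span 1 kb or less. The leading Atxn2 circle, with 269 reads, spans 1000 bp near the 3′ end of the gene. The leading Pum2 circle, with 13 reads, spans 7951 bp, from 23.957 to 31.907 kb.

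The Atxn2 circles drew on a large part of the gene, from exon 2 to exon 24, while no entry included exon 1 or exon 25. From the 5′ end, exons 2 to 5 formed the circle listed as both mmu_circ_0001405 and circRNA1594. Exons 6 to 8 formed mmu_circ_0001406, exons 6 to 14 circRNA3643, and exons 7 and 8 the circle listed as both mmu_circ_0012068 and circRNA1595. Exons 12 and 13 formed circRNA6111, exons 12 to 24 circRNA963, exons 13 and 14 mmu_circ_0012069, exons 15 to 20 circRNA2465, exons 15 to 23 circRNA964, and exons 22 to 24 circRNA2466. Several circles shared a splice site. The end of exon 8 was used by 3 entries, and the end of exon 20 was used by both mmu_circ_0012070 and circRNA2465. For all 15 exonic entries of the 2 genes, the listed exon count matched the number of exons of the transcript between the listed start and end.

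The exonic entries of Atxn2 and Pum2 had a median length of 320 bases, beside 398 bases over 6261 exonic circRNAs that could be placed on their transcripts. The introns that flanked them had medians of 4582 bp upstream and 3141 bp downstream, beside 6939.5 bp and 5228.5 bp over 6314 exonic circRNAs. Individual circles departed from these medians in both directions. The circle of exons 2 to 5 of Atxn2 was flanked by introns of 33446 bp and 23437 bp, and 13.0% and 13.3% of exonic circRNAs had longer ones. CircRNA76 followed an intron of 23920 bp, longer than that of all but 20.8% of exonic circRNAs, and preceded an intron of 3280 bp. The leading Atxn2 circle lay between introns of 4289 bp and 3141 bp, shorter than those of 62.2% and 64.3% of exonic circRNAs. A length that is a multiple of 3 was found in 5 of the 15 exonic entries, beside 36.7% of all exonic circRNAs. The medians and this count take each entry as listed, so a circle listed under both entries of a pair was counted for each.

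Because Pum2 encodes a protein that recognises the Pumilio element, the circles were searched for TGTANATA on the strand of the transcript, the junction included. The motif was in 0 of the 15 exonic entries of Atxn2 and Pum2. It was in 138 of the 6261 exonic circRNAs (2.20%), in 0.927% of the 1834 circles within 20% of the length of mmu_circ_0012070, and in 0.196% of the 510 circles of a length like that of circRNA76. The absence says only that these letters are not in these circles.

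The leading Atxn2 circle was among the most abundant circRNAs of these livers. Mmu_circ_0012070 had 19, 64 and 51 back-spliced reads in HFD 1, 2 and 3 and 58, 61 and 16 in LFD 1, 2 and 3. With 269 reads it had rank 5 among the 7469 circRNAs. The level was high in 4 libraries, 2 of each diet, and low in HFD 1 and LFD 3, so that the diets overlapped over their whole range. The mean level was 11.4 ± 6.27 SRPBM on HFD and 12.2 ± 6.93 SRPBM on LFD (SD, n = 3 each), and the means differed by far less than either SD.

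The low libraries were those of the higher quality class. Mmu_circ_0012070 was at 4.36 SRPBM in HFD 1 and 4.22 SRPBM in LFD 3, whereas in the lower class it was at 16.3 and 13.7 SRPBM in HFD 2 and 3 and at 15.4 and 16.9 SRPBM in LFD 1 and 2. Within each class the HFD and LFD libraries lay close together or overlapped. The mean was 3.63 times as high in the lower class as in the higher class (15.6 against 4.29 SRPBM), while the sum over all circRNAs was 0.999 times as high. By the same sequencing statistics, HFD 1 and LFD 3 also had the largest shares of mapped and of uniquely mapped reads. The part of quality or mapping in this level was not tested.

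**Figure D2:**
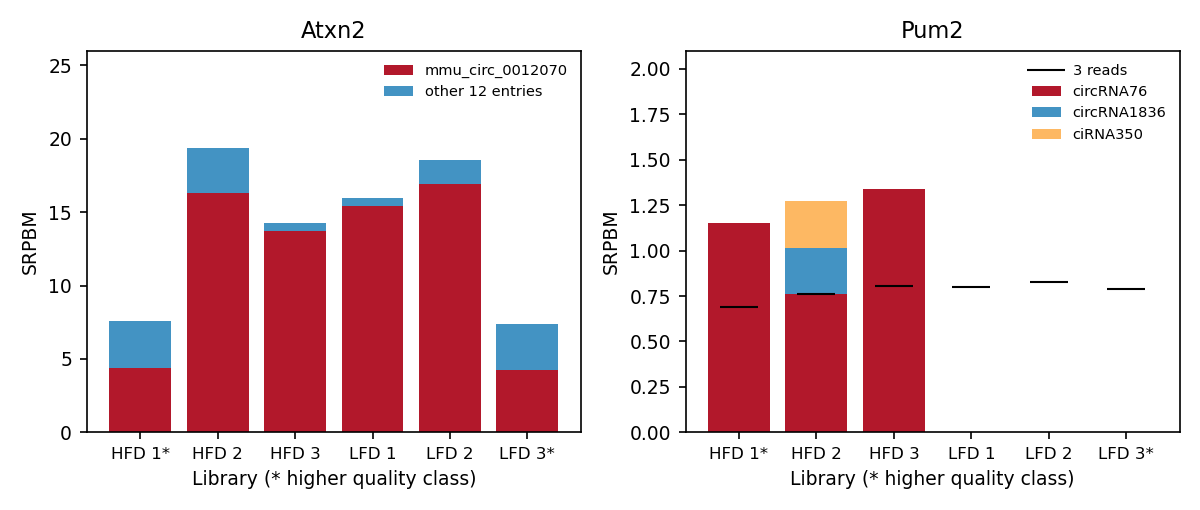
SRPBM of the Atxn2 circles (left) and the Pum2 circles (right) in each of the 6 libraries, stacked by circle, with asterisks for the libraries of the higher quality class and short lines for the level of 3 reads. The Atxn2 sum was 7.57 and 7.38 SRPBM in HFD 1 and LFD 3 and 14.2 to 19.3 SRPBM in the other libraries, while Pum2 had 1.15 to 1.34 SRPBM on HFD and 0 in each LFD library.

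The other 12 Atxn2 entries did not follow the leading circle. Summed, they had 14, 12 and 2 reads in HFD 1, 2 and 3 and 2, 6 and 12 reads in LFD 1, 2 and 3. In SRPBM the highest values were those of HFD 1 (3.21) and LFD 3 (3.16), just above HFD 2 (3.05), and the lowest were those of HFD 3 (0.537) and LFD 1 (0.533). Their mean in the lower quality class was 0.454 times that in the higher class. The leading circle and the remainder of the gene thus ran in opposite directions between the quality classes.

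As a result, the share of the Atxn2 reads held by mmu_circ_0012070 differed among the libraries. It was 84.9% over all libraries (269 of 317 reads, 95% exact Clopper-Pearson interval 80.4% to 88.6%). It was 57.6% in HFD 1 (39.2% to 74.5%) and 57.1% in LFD 3 (37.2% to 75.5%). In the lower class it was 84.2% in HFD 2 (74.0% to 91.6%), 96.2% in HFD 3 (87.0% to 99.5%), 96.7% in LFD 1 (88.5% to 99.6%) and 91.0% in LFD 2 (81.5% to 96.6%). The intervals of HFD 1 and LFD 3 overlapped that of HFD 2 slightly and lay below those of HFD 3, LFD 1 and LFD 2.

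**Figure D3:**
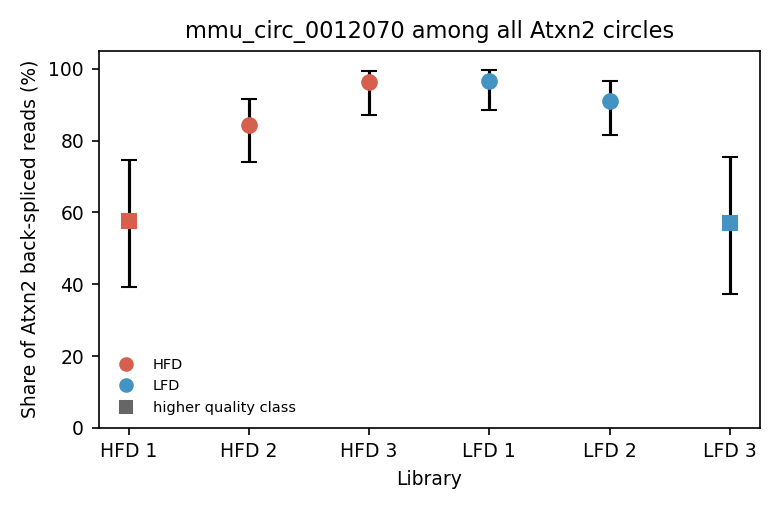
Share of the Atxn2 back-spliced reads, in percent, that belonged to mmu_circ_0012070 in each library, with 95% exact Clopper-Pearson intervals as error bars, colours for the diet and squares for the higher quality class. The squares, HFD 1 and LFD 3, lie at 57.6% and 57.1%, and the round points lie between 84.2% and 96.7%.

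The size of this split was set beside that of other abundant circRNAs, after entries 1 bp apart had been summed. Of 89 circRNAs with at least 50 reads, 13 (14.6%) were lower in both libraries of the higher class than in all 4 of the lower class, and 18 (20.2%) were higher. The median ratio of the lower to the higher class was 1.01. By this ratio mmu_circ_0012070 had rank 8. By the SRPBM of the lower class minus that of the higher class it had rank 1. This difference was 11.3 SRPBM, against 6.1 SRPBM for the next circRNA that was higher in the lower class. Only an abundant circRNA can have a large difference in SRPBM, and Atxn2 was selected for its abundance, so rank 1 is a description.

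**Figure D4:**
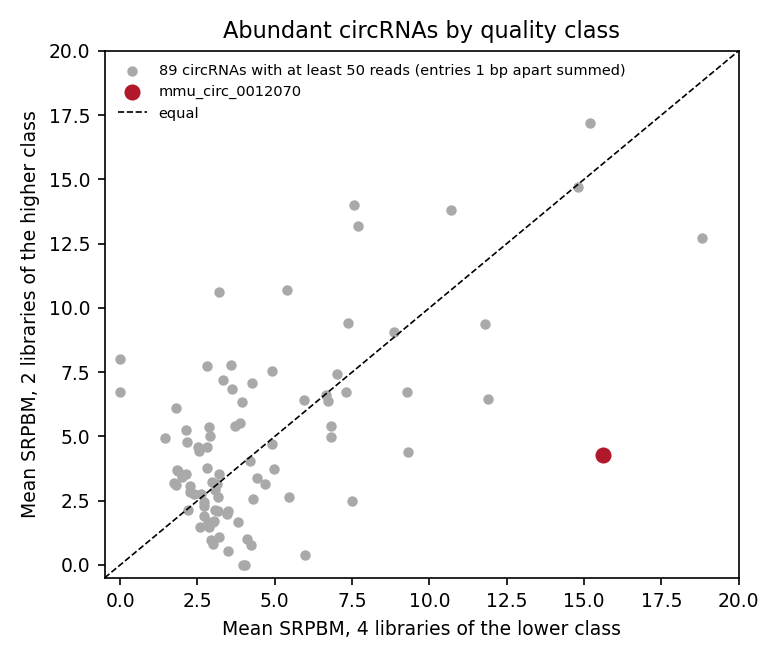
Mean SRPBM in the 2 libraries of the higher quality class against the mean in the 4 libraries of the lower class, for 89 circRNAs with at least 50 reads. The dashed line marks equal means. Mmu_circ_0012070 (red), at 15.6 and 4.29 SRPBM, lies farthest below the line, a distance that only abundant circRNAs can reach.

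The circle of exons 2 to 5 of Atxn2 was the next in abundance and is listed under 2 entries. Mmu_circ_0001405 starts at the first base of exon 2, at chr5:121745723-121749229, and circRNA1594 starts 1 bp inside the exon, at 121745724. A start 1 bp inside an annotated exon was listed for 619 of the 6406 exonic circRNAs of the whole list. The junctions of both pairs of this kind were built from the listed positions and the annotated exons, not from reads. They are shown so that the difference can be seen, with the end of the last exon in lower case and the start of the circle in capitals.
mmu_circ_0001405: gttatgcacggagagAGGTCGGAACAGTAG
circRNA1594: gttatgcacggagagGGTCGGAACAGTAGC
mmu_circ_0012068: tggccccaacactagTCTAATGGATGGGAC
circRNA1595: tggccccaacactagCTAATGGATGGGACC

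Mmu_circ_0001405 had 4 reads in HFD 2 and 2 in LFD 1. CircRNA1594 had 9 reads in HFD 1, 4 in LFD 2 and 7 in LFD 3. No library held reads of both entries, although 5 libraries held reads of one or the other. The sum for this circle was 9, 4 and 0 reads on HFD and 2, 4 and 7 reads on LFD, 26 in all. This came to 1.03 ± 1.03 SRPBM on HFD and 1.16 ± 0.658 SRPBM on LFD (SD, n = 3 each), and the diets overlapped. With 9 and 7 reads, HFD 1 and LFD 3 were the highest libraries for this circle and the lowest for mmu_circ_0012070.

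The circle of exons 7 and 8 is the second case of this kind. Mmu_circ_0012068, at chr5:121777370-121778105, had 5 reads in HFD 2 and none elsewhere, and circRNA1595, which starts 1 bp later, had 2 reads in HFD 1 and none elsewhere. Taken as separate entries each was found in 1 library and could not be compared, and their sum was 2, 5 and 0 reads on HFD and 0 in each LFD library. HFD 3 thus had no read of this circle, like the LFD libraries, and the diets overlapped at 0.

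The remaining Atxn2 circles had 1 to 3 reads each. CircRNA964 had 2 reads in HFD 1 and 1 in HFD 2. Mmu_circ_0001406 and circRNA3643, which share the start of exon 6, each had 1 read in HFD 3 and 1 in LFD 2. CircRNA6111 had 3 reads and mmu_circ_0012069 had 2, all in LFD 3, and circRNA963, circRNA2465 and circRNA2466 were single reads in HFD 1, HFD 2 and HFD 2. These levels lay at or below the floor of 3 reads in every library.

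Summed over its 13 entries, Atxn2 had 33, 76 and 53 reads in HFD 1, 2 and 3 and 60, 67 and 28 in LFD 1, 2 and 3. By reads its rank was 5 among 3468 host genes. The sum made up 0.514%, 1.15% and 0.883% of all back-spliced reads on HFD and 1.11%, 1.21% and 0.445% on LFD. The Atxn2 sum averaged 13.7 ± 5.90 SRPBM on HFD and 14.0 ± 5.85 SRPBM on LFD (SD, n = 3 each). In the edgeR quasi-likelihood fit over 1834 host genes the log2 fold change was -0.09 with a standard error of 0.33, and the adjusted p-value was 0.976. This standard error rests on a spread shared over all features and does not measure the spread of Atxn2 between mice. The sign of the log2 fold change was positive when HFD 1, LFD 1 or LFD 2 was left out, with 0.16, 0.07 and 0.13.

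Pum2 had few reads, and all of them were in the HFD group. The back-splice of circRNA76 was read 5, 3 and 5 times in HFD 1, 2 and 3 and was not seen in the LFD libraries. The value of HFD 2, 0.763 SRPBM, was at the floor of 3 reads of that library, and those of HFD 1 and HFD 3, 1.15 and 1.34 SRPBM, were above theirs. In the HFD group the mean was 1.08 ± 0.295 SRPBM (SD, n = 3).

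The other Pum2 entries had a single read each, both in HFD 2. CircRNA1836 joins exons 6 and 7 of Pum2 at chr12:8713360-8713937. CiRNA350, of the intronic class, covers the whole of intron 20, which has 635 bp, at chr12:8748954-8749588. With them, the Pum2 sum was 5, 5 and 5 reads on HFD and 0, 0 and 0 on LFD, which is 1.25 ± 0.0992 SRPBM (SD, n = 3) in the HFD group. As the HFD counts were equal, this SD holds only the differing SRPBM per read of the libraries and neither counting error nor a spread between mice. The HFD mean of the Pum2 sum was 1.55 times the mean level of 3 reads in the LFD libraries, which was 0.791 to 0.830 SRPBM. For circRNA76 alone it was 1.34 times that level. These ratios leave out the counting error of the few HFD reads and use values on which Pum2 was chosen, so they are a description. In the edgeR quasi-likelihood fit over host genes the adjusted p-value of Pum2 was 0.798. The unadjusted one was 0.00615 with all libraries and 0.0567 in the lower quality class alone, which has fewer libraries. The fitted log2 fold change was 5.29 in both fits. It depends on the prior count, since the LFD libraries were at 0, so nothing is read from its being the same. CircRNA76 held 13 of the 15 reads of the gene (86.7%, 95% exact Clopper-Pearson interval 59.5% to 98.3%).

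Reads in all 3 HFD libraries and in no LFD library were found for 29 of the 1834 host genes tested (1.58%), and the reverse for 11 (0.600%). Among single circRNAs the numbers were 28 of 2041 (1.37%) and 20 of 2041 (0.980%). Pum2 and circRNA76 belong to the former, and nothing further is read from this, since the gene was chosen with it known.

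In the fit over single circRNAs, 7 of the 16 entries of both genes had reads in at least 2 libraries and were tested, 6 of Atxn2 and 1 of Pum2. The thresholds were an unadjusted p-value under 0.05 together with a change of at least 1 on the log2 scale in either direction. They were passed by 1 of the 7, circRNA76, beside 49 of 2041 circRNAs (2.40%) over the whole list, of which 1.18% were higher and 1.22% lower in HFD. CircRNA76 was itself a reason to choose Pum2, so this count is a description. Its adjusted p-value in edgeR was 0.694. After adjustment 0 of 2041 circRNAs were under 0.05 in edgeR, in DESeq2 and in limma, while 49, 11 and 79 had an unadjusted p-value under 0.05. The call of circRNA76 was lost without HFD 3 and in the lower quality class alone, with unadjusted p-values of 0.054 and 0.0765 in edgeR, both from fewer libraries. Its fitted log2 fold change, which depends on the prior count since the LFD libraries were at 0, was 5.08 with all libraries and 4.95 and 4.94 in these fits.

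Of the 7 entries tested, 3 had a positive and 4 a negative log2 fold change in HFD against LFD. Their median log2 fold change was -0.14, beside -0.13 over all circRNAs tested. For mmu_circ_0012070 it was -0.23 with a standard error of 0.34, and the adjusted p-value in edgeR was 0.980. This standard error rests on a spread shared over all features and does not measure the spread of this circle between mice. In DESeq2 the log2 fold change of mmu_circ_0012070 was -0.21 with an unadjusted p-value of 0.791. No Atxn2 entry passed the thresholds. The non-overlap of SRPBM between the diets, which circRNA76 shows, was found for 4.95% of the circRNAs tested (3.14% with HFD above LFD), and for 6.22% of host genes when their circles were summed (3.27% with HFD above LFD).

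The paralog of Atxn2 was also examined. Atxn2l, the ataxin-2-like gene, was host of 2 circRNAs with 3 reads, 1 each in HFD 1, HFD 3 and LFD 1. In circRNA reads, Atxn2 stood far above its paralog in these livers. As Atxn2 had been selected for its abundance, nothing further is read from this.

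Genes of the same processes were examined as lists of host genes. Of 12 genes of the PUF proteins and their NANOS and CPEB partners, 4 were hosts, 3 were tested and 1, Pum2 itself, passed the thresholds, beside 2.29% of all host genes tested (1.25% higher and 1.04% lower in HFD). Cpeb3, a regulator of cytoplasmic polyadenylation, had 41 reads over 6 circRNAs. Of 11 genes of the ataxin-2 proteins and their partners, 3 were hosts and were tested, and 0 passed. The third host was Tdrd3, a tudor domain protein, with 5 reads.

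Of 33 genes of the CCR4-NOT complex, of deadenylation and of P-bodies, 22 were hosts of 60 circRNAs, 15 were tested and 0 passed in edgeR. Cnot6l, a deadenylase subunit, had 11, 20 and 12 reads on HFD against 14, 10 and 10 on LFD. Pan3, of the PAN2-PAN3 deadenylase, had 7, 8 and 17 reads on HFD against 7, 10 and 11 on LFD. In both the diets overlapped. Of 46 other RNA-binding regulators, including those of stress granules, 26 were hosts of 55 circRNAs, 14 were tested and 0 passed. Qk, the splicing regulator quaking, led them with 20 reads. The median log2 fold changes of the last 3 lists, in the order given, were -0.09, -0.11 and -0.34, beside -0.09 over all host genes tested.

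The host genes whose summed SRPBM ran most like that of Atxn2 over the 6 libraries, by Pearson's r of log2(SRPBM + 0.25) among 337 host genes with reads in all libraries, were R3hdm1 (r = 0.988), Atrnl1 (r = 0.973) and Atf2 (r = 0.952). R3hdm1, which encodes a protein with the R3H domain of nucleic acid-binding proteins, had 0.688, 6.36 and 3.76 SRPBM in the HFD libraries and 3.46, 7.20 and 0.791 SRPBM in the LFD libraries. All 3 genes were lowest in HFD 1 and LFD 3, as was Atxn2. Atf2, a transcription factor, had 24 reads in all, so that its values rest on few reads.

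For Pum2 the most similar host genes were Uox (r = 0.923), Pms1 (r = 0.901) and Erbin (r = 0.896), out of 338. The Uox sum, of 1 circRNA of the urate oxidase gene, was 1.84, 2.54 and 2.69 SRPBM in the HFD libraries and 1.33, 0.83 and 1.05 SRPBM in the LFD libraries. As Pum2 was at 0 in every LFD library, a host gene picked for likeness to it had to be higher on HFD. These correlations describe 6 libraries that share their depth and quality class with the genes compared, and the genes were the highest of many.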

How the data were processed

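Back-spliced reads were analysed in 6 liver libraries, 3 per diet, with diet and mouse number taken from the titles. The study's methods name Bowtie2, TopHat2 and TopHat-Fusion for mapping, and CIRI and CIRCExplorer2 for finding circles, and the submitters' processing notes add cutadapt 1.9 for trimming and version 2.0.4 for TopHat2. The authors deposited, per circle and library, a raw count of reads across the back-splice and a signal, SRPBM, equal to that count times 1 factor per library. The processing notes name the genome build mm9, but the listed positions are those of GRCm38, since 97.5% of the 6406 exonic circRNAs end on an exon end of GENCODE M21, and this annotation was used.

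Counts were tested with the edgeR quasi-likelihood test with TMM normalization, on circRNAs or summed host genes with reads in at least 2 libraries and with library sizes taken over the features tested. A circRNA or gene was called at an unadjusted p under 0.05 if its log2 fold change was also at least 1 in size, with Benjamini-Hochberg adjustment over all features. The common dispersion was 1.168 for circRNAs and 0.562 for host genes. The procedure was also run on simulated data, the outcome of which is not reported here. Shares have 95% exact Clopper-Pearson intervals, which cover counting error only.

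The genes, lists and tests were chosen with earlier results of these data known. Every entry of both genes was accounted for, and those with reads in at least 2 libraries or at least 5 reads were named with the reads of each library. For each list of host genes, members were named by their reads. Alternatives were edgeR without TMM, DESeq2, limma on log2(SRPBM + 0.25), no filter, a filter of 3 libraries, the replicate number as a block, each library left out, the lower quality class alone, and entries 1 bp apart summed. The columns of gene annotation were used for names and GO terms only. RT-qPCR was not analysed here. Some results on a further gene are not reported here. Versions were edgeR 4.0.16, DESeq2 1.42.0 and limma 3.58.1 under R 4.3.3. Under Python 3.11.15, SciPy 1.17.1, NumPy 2.4.6 and pandas 2.3.3 were used, and figures were drawn in matplotlib 3.10.9.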

Additional observations from a re-analysis of the deposited data

How the results depend on the processing

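The log2 fold change of Atxn2 in HFD against LFD ranged from -0.43 to 0.16 when single libraries were left out, and it did not pass the thresholds under any alternative run. The unadjusted p-value of Pum2 in edgeR, 0.00615, ranged from 0.0168 to 0.0304 when single libraries were left out. It was 0.0567 in the lower quality class alone, where fewer libraries were tested. The fitted log2 fold change of Pum2, which depends on the prior count, was 5.29 there and with all libraries. The adjusted p-values of Pum2 over all alternatives ranged from 0.591 to 0.996. The number of Atxn2 and Pum2 circles past the thresholds, 1, became 0 with the replicate block and in the lower quality class alone, and was 0 or 1 when single libraries were left out. For circRNA76 the unadjusted p-value was 0.0857 with the replicate block in edgeR and ranged from 0.0377 to 0.054 without single libraries, the call being lost without HFD 3. Over the whole list the number past the thresholds, 49, was 11 with DESeq2, 79 with limma, 10 with the replicate block and 26 in the lower quality class alone, and ranged from 20 to 39 when single libraries were left out, with 20, 22, 21 and 27 without HFD 2, HFD 3, LFD 2 and LFD 3. The causes were not tested.

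The replicate numbers did not pair the libraries, since same-numbered libraries correlated at -0.0609, 0.112 and -0.0483 in their deviations from the group means, while HFD 1 and LFD 3, of the same quality class, correlated at 0.209. The replicate block changed the call of circRNA76 but not that of Atxn2 or Pum2 as summed genes. Signs that turned when a library was left out were those of circRNA1594 (-4.96 to 0.51), mmu_circ_0012070 (-0.55 to 0.12), and mmu_circ_0001406 and circRNA3643 (-0.58 to 0.34 each), none of which passed the thresholds. The share of mmu_circ_0012070 in Atxn2 was 80.5% to 91.4% under all alternatives. Entries 1 bp apart do not change the sum of a gene, and circles with reads in too few of the libraries kept have no value under some alternatives. Pum2 had 15 reads in all, and the effect of depth on its values was not tested.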
